A study of Mus musculus with 18 samples.

Results

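Expression of 10 imprinted growth genes, *H19*, *Igf2*, *Peg3*, *Mest*, *Dlk1*, *Meg3*, *Grb10*, *Plagl1*, *Zim1* and *Ndn*, was followed in 168FARN and 67NR, which are mouse mammary tumour lines, as WT cells and after knockout (KO) of *Kmt2c* or of *Kmt2d*. The genes were picked by symbol (H19, IGF2, PEG3, MEST, DLK1, MEG3, GRB10, PLAGL1, ZIM1 and NDN in the capitals of the tables), and all 10 had a row in both count tables, out of 24333 gene symbols that the tables share. RNA was taken from 3 replicates of each of the 6 groups, giving 18 libraries. The KO cells were pools sorted after each line was transiently transfected with sgRNAs against exon 1 of the targeted gene, and were not clones. Sequencing in the paper found only mutant reads in the *Kmt2d* pool of 168FARN. Its other pools kept some reads without a mutation, with the largest such share in the *Kmt2c* pool of 67NR. Per the paper, replicates were collections of the same cells a passage apart, and so are not independent knockouts. The columns of the 168FARN table name the WT libraries as carrying a control sgRNA, whereas those of the 67NR table name them only as WT. Per the labels, all groups were grown in the same medium, and no treatment is given for any of them.

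Imprinted genes are transcribed from only the maternal or only the paternal copy, and the choice is kept by DNA methylation at control regions that are set in the germline. Many of them act on growth. *Igf2* encodes a secreted growth factor that signals through the IGF1 receptor and is cleared by the *Igf2r* product. *H19*, its neighbour, makes a maternal non-coding RNA from which miR-675 is cut, and a CTCF-bound control region between the genes decides which of them reaches shared enhancers. *Plagl1* encodes a zinc-finger transcription factor that can activate *H19*, *Igf2* and other imprinted genes. *Mest*, *Peg3*, *Dlk1* and *Zim1* belong to other imprinted domains, as do the non-coding RNA *Meg3*, the receptor adaptor *Grb10* and *Ndn*. KMT2C and KMT2D are the methyltransferases that place monomethylation on histone H3 lysine 4 at enhancers. Most imprinted growth genes are high in the embryo and placenta and fall after birth.

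The start regions of the 3 members on which the results turn are shown because KMT2C and KMT2D act on regulatory DNA. Each window runs from 250 bases before to 50 bases after an annotated start and is printed 5′ to 3′ along the gene's strand. Capitals mark the letters of a GC box (GGGCGG, read on both strands). The *H19* window is chr7:149763999-149764298 of mm9 on the minus strand, read at the GENCODE gene start. The *Plagl1* window is chr10:12810388-12810687 on the plus strand. The *Igf2* window is chr7:149843352-149843651 on the minus strand and is the RefSeq start, of 4, at which most GENCODE transcripts begin. The *Plagl1* and *Igf2* sequences are RefSeq windows of GRCm38.p6, each found as a single exact match on its mm9 chromosome.
H19: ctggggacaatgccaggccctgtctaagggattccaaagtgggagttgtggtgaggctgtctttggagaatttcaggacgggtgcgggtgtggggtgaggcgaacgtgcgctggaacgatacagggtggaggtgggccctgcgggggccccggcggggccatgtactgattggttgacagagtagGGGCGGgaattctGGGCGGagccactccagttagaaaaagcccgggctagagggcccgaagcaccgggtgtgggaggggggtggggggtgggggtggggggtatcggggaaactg
Plagl1: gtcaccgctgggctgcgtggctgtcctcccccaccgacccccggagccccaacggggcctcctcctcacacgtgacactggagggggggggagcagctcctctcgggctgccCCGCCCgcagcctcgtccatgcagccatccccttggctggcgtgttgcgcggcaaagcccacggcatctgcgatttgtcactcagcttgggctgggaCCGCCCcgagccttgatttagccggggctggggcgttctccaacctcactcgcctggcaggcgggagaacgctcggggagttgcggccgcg
Igf2: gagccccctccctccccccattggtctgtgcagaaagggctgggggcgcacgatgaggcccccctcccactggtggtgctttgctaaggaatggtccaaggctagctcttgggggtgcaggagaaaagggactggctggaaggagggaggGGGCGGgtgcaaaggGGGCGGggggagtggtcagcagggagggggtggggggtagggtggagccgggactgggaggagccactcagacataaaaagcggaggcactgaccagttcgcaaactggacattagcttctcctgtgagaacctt
Each of these windows held 2 GC box matches, and 35.7% of the 32851 RefSeq windows of the same length held at least 1. The letters TATAAA were absent from all 3 windows on both strands and present in 13.6% of RefSeq windows. The *H19* window held 15 CpG dinucleotides, the *Plagl1* window 26 and the *Igf2* window 7, against a median of 7. Gene counts do not say which *Igf2* start was used.

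The miR-675 hairpin lies inside an exon of *H19*, at chr7:149762969-149763052 of mm9 on the minus strand. Its mature products are shown because the host transcript was almost lost in KO cells of 67NR, and their seeds (bases 2 to 8, in capitals) differ from each other.
mmu-miR-675-5p: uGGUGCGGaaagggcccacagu
mmu-miR-675-3p: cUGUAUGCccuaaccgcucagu
Libraries of polyA RNA do not measure mature miRNAs, and the row for the miRNA's own gene held no reads.

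In mm9, *H19* lies at chr7:149761434-149764048 and *Igf2* at chr7:149836673-149852721, both on the minus strand with 72624 bases between them. *Plagl1* lies at chr10:12810497-12851500 on the plus strand, and *Mest* at chr6:30673547-30698457 on the plus strand. On the annotation *Mest* runs into *Copg2* and *Igf2* runs into an antisense RNA. How the counting treated strand is not given in the sources used here, so reads in these overlaps cannot be assigned.

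The 168FARN libraries held 14359760 to 43427382 counted reads each, and the 67NR libraries 40951775 to 79251530. A count of 0 in a library therefore allowed a level of up to 0.0353 to 0.214 CPM, set at 3 counts. CPM are read counts relative to library size, with TMM factors from all 18 libraries. Replicate 3 stood apart from replicates 1 and 2 in every group, with *Uhrf1* at 405% to 958% of their mean. The targeted mRNAs were counted first. *Kmt2c* stood at 90.0 ± 38.9 CPM (SD, n = 3) in 168FARN WT cells against 79.2 ± 27.4 CPM after its own KO, and at 59.3 ± 4.63 CPM against 86.5 ± 4.79 CPM in 67NR. *Kmt2d* stood at 144 ± 33.3 CPM in 168FARN WT cells against 233 ± 84.4 CPM after its own KO, and at 99.0 ± 14.5 CPM against 109 ± 27.7 CPM in 67NR. Neither mRNA was called lower in its own KO, and in 67NR *Kmt2c* was called higher (log2 fold change 0.63, edgeR adjusted p = 0.00669), though at 0.58 it missed the fold threshold without WT replicate 3 or *Kmt2c* KO replicate 2. The rise was not particular to its own KO, since *Kmt2c* was also called higher after *Kmt2d* KO in 67NR (0.80, edgeR adjusted p = 0.00314). *Kmt2d* in its own KO in 168FARN changed by 0.71 and was not called (edgeR adjusted p = 1.000), but with a model term (block) for the replicate number it was called higher, at 0.66 (edgeR adjusted p = 0.00622). A gene's total count does not see small insertions or deletions in exon 1, so it checks nothing about the labels, and genotypes are given as labelled.

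Of the 10 genes, 1 reached a mean of 1 CPM in any group of 168FARN and 3 did so in 67NR. *Igf2* was the only member that passed the filter on low counts in 168FARN. *Igf2*, *H19*, *Plagl1* and *Mest* passed it in 67NR. The other 6 genes are described at the end of the account of the members. Per kilobase of exon, *Igf2* stood at 23.2 ± 10.3 CPM in WT cells of 168FARN. In WT cells of 67NR the order per kilobase was *H19* at 5.14 ± 1.02 CPM, *Plagl1* at 0.853 ± 0.0611 CPM, *Mest* at 0.638 ± 0.620 CPM and *Igf2* at 0.119 ± 0.0827 CPM. The *Plagl1* libraries lay inside the range of *Mest*, and the means of *Mest* and *Igf2* differed by less than the SD of *Mest*.

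**Figure D1:**
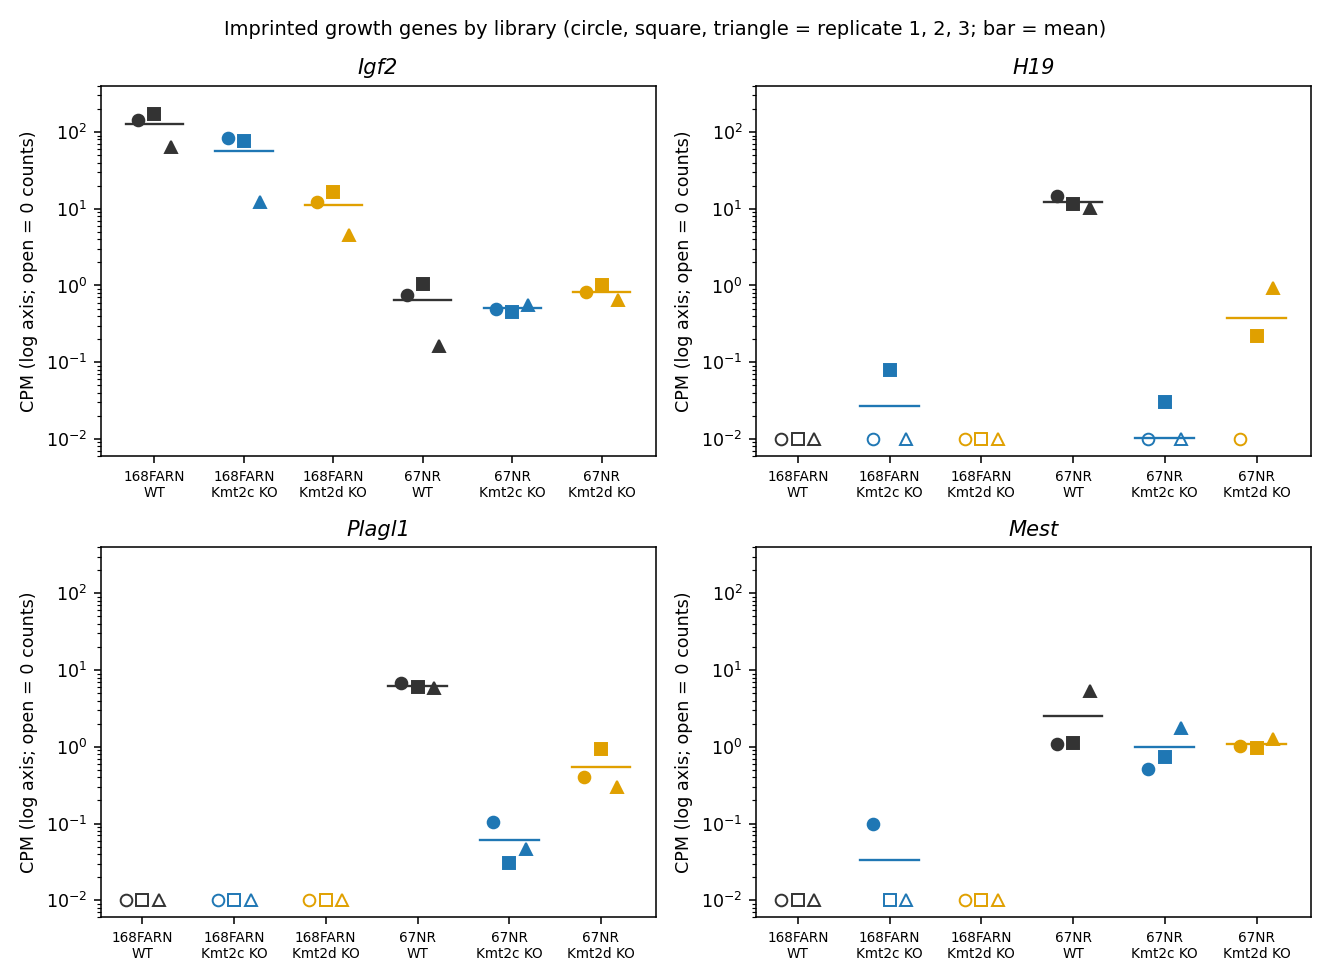
CPM of *Igf2*, *H19*, *Plagl1* and *Mest* in each of the 18 libraries on a log axis, by line and genotype, with replicate 1 as a circle, 2 as a square and 3 as a triangle; bars are group means and open symbols are libraries with 0 counts. *Igf2* is high in 168FARN and steps down from WT to *Kmt2d* KO, whereas *H19* and *Plagl1* are read almost only in WT cells of 67NR.

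*Igf2* was lower in *Kmt2d* KO than in WT cells of 168FARN, to less than 10% in each replicate number. The WT replicates 1 to 3 read 145, 172 and 64.1 CPM. The *Kmt2c* KO replicates read 82.5, 77 and 12.4 CPM. The *Kmt2d* KO replicates read 12.4, 16.8 and 4.54 CPM. All 3 *Kmt2d* KO libraries lay below all WT libraries, while the *Kmt2c* KO range overlapped the WT range and, through replicate 3, the *Kmt2d* KO range. Against the WT library of the same number, *Kmt2d* KO cells held 8.55%, 9.74% and 7.09% of the *Igf2* level, and *Kmt2c* KO cells held 56.8%, 44.7% and 19.4%. The share was thus below 100% in each pair, though both KOs were set against the same 3 WT libraries. Within each number *Kmt2d* KO cells had the lower share. How many other genes fell in each pair was not counted.

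The call on *Igf2* in 168FARN depended on the replicate number. With genotype alone in the model, edgeR's quasi-likelihood test gave a log2 fold change of -3.49 ± 0.80 (SE; adjusted p = 0.222) after *Kmt2d* KO and -1.15 ± 0.73 (adjusted p = 1.000) after *Kmt2c* KO, and neither was called. A call needed an absolute log2 fold change over 0.6 together with an adjusted p under 0.1. Of 12253 genes tested, 0.286% were called after *Kmt2d* KO and 0.359% after *Kmt2c* KO, and 647 and 725 genes had an unadjusted p under 0.05. DESeq2 without the block called *Igf2* after *Kmt2d* KO (-3.48, DESeq2 adjusted p = 2.6e-04), as it did 248 of the 12253 genes. When the model held the block for the replicate number, the log2 fold change was -3.59 ± 0.29 (edgeR adjusted p = 2.1e-04) after *Kmt2d* KO and -1.40 ± 0.26 (edgeR adjusted p = 0.0127) after *Kmt2c* KO, and both were called, as were 5.90% and 7.23% of genes. The block also separated the KOs: *Igf2* was higher after *Kmt2c* KO than after *Kmt2d* KO by 2.19 ± 0.28 on the log2 scale (edgeR adjusted p = 0.00328, with 5.33% of genes called). Without the block this difference was 2.34 ± 0.77 and was not called (edgeR adjusted p = 0.656), with 0.253% of genes called.

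Replicate 3 moved with the *Igf2* level. *Igf2* in replicate 3 was 40.4% of the mean of replicates 1 and 2 in WT, 15.6% after *Kmt2c* KO and 31.1% after *Kmt2d* KO. *Uhrf1* and *Dnmt1*, which copy DNA methylation at replication, were higher in replicate 3 of the same groups, *Uhrf1* at 841% to 958% and *Dnmt1* at 299% to 446% of that mean. *Ezh2* was higher there too, at 261% to 329%. In 67NR, *Uhrf1* in replicate 3 was at 405% to 647%, beside *Igf2* at 17.7% in WT, 118% after *Kmt2c* KO and 70.2% after *Kmt2d* KO. The part of these genes in the *Igf2* values was not tested. Without replicate 3 in any group, a setting chosen after seeing the data, the log2 fold change of *Igf2* in 168FARN was -3.43 (edgeR adjusted p = 6.9e-09) after *Kmt2d* KO and -0.98 (edgeR adjusted p = 1.2e-04) after *Kmt2c* KO. Of 12285 genes tested in that setting, 1346 and 1780 were called. Bulk counts cannot tell fewer *Igf2*-expressing cells in a pool from less *Igf2* RNA in each cell, here and in the results below.

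**Figure D2:**
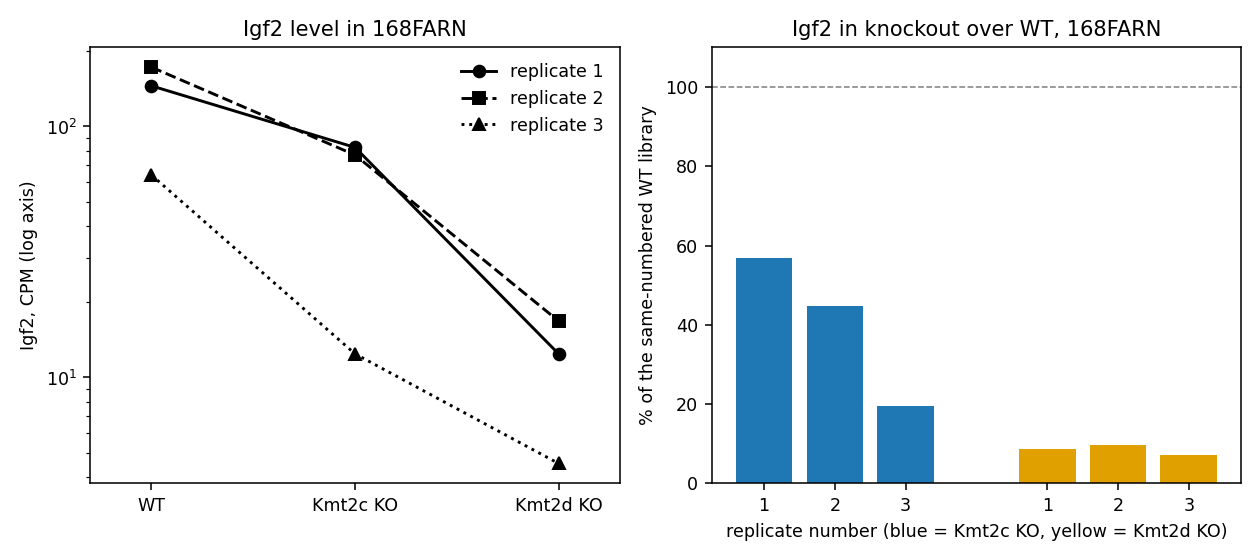
Left, *Igf2* CPM (log axis) in the 9 libraries of 168FARN by genotype, with a line joining the libraries of the same replicate number. Right, *Igf2* in each KO library as a percentage of the WT library with its number (axis from 0, dashed line at 100%); *Kmt2d* KO bars stand between 7.09% and 9.74% and *Kmt2c* KO bars between 19.4% and 56.8%.

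*H19* was almost lost in KO cells of 67NR. The 3 WT libraries held 1263, 784 and 446 reads, or 14.9, 11.5 and 10.2 CPM. *Kmt2c* KO libraries held 0, 2 and 0 reads, and *Kmt2d* KO libraries held 0, 12 and 37 reads, the last at 0.926 CPM. No KO library came near the WT libraries, and within *Kmt2d* KO cells the replicates ranged from none to 9.07% of the WT library of the same number. Over pooled counts, *H19* in *Kmt2c* KO cells was 1173-fold below WT, with an exact 95% counting interval of 324 to 9688 that rests on 2 reads and covers counting error only. It was 686-fold below without *Kmt2c* KO replicate 1 and at least 505-fold, against a floor of 3 reads, without replicate 2. In *Kmt2d* KO cells it was 38.5-fold below WT (counting interval 29.0 to 52.1). Of those 49 reads 37 lay in replicate 3, and *H19* was 115-fold below WT without that library (counting interval 65.7 to 223) and 24.4-fold below without replicate 1, so the spread between libraries is far wider than the counting intervals. The fitted log2 fold changes, -9.81 ± 1.43 (edgeR adjusted p = 7.7e-04) and -4.98 ± 1.02 (edgeR adjusted p = 0.00776), were both called, though for genes this near 0 their size depends on the fit and is no bound.

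*Plagl1* fell beside it, and further after *Kmt2c* KO than after *Kmt2d* KO. The WT libraries of 67NR held 571, 413 and 257 reads, or 6.72, 6.04 and 5.88 CPM. *Kmt2c* KO libraries held 8, 2 and 2 reads, and *Kmt2d* KO libraries 22, 51 and 12 reads, or 0.404, 0.935 and 0.300 CPM. None of the 3 groups overlapped. *Plagl1* after *Kmt2c* KO was 0.504% to 1.55% of the WT library of the same number, and after *Kmt2d* KO 5.11% to 15.5%. The log2 fold change was -6.50 ± 0.61 (edgeR adjusted p = 5.9e-05) after *Kmt2c* KO and -3.41 ± 0.50 (edgeR adjusted p = 0.00143) after *Kmt2d* KO.

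*H19* and *Plagl1* were thus the 2 called of 4 members tested in each KO of 67NR, where 35.3% of 13665 genes were called after *Kmt2c* KO (17.9% higher, 17.4% lower) and 25.5% after *Kmt2d* KO (13.9% higher, 11.6% lower). Both calls on both genes held under all 15 alternatives. Both genes passed the filter on low counts through their WT libraries, so a rise could hardly have been seen for them. Between the KOs, *Plagl1* was lower in *Kmt2c* KO by 3.09 ± 0.58 on the log2 scale (edgeR adjusted p = 0.0548), a call made for 1.41% of genes that was lost when any of 5 KO libraries was left out. The difference of *H19*, -4.83 ± 1.505, was not called (edgeR adjusted p = 0.256). With the replicate block, which called 7.29% of genes, the *Plagl1* difference had an edgeR adjusted p of 0.00817 and that of *H19*, not called, 0.130.

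**Figure D3:**
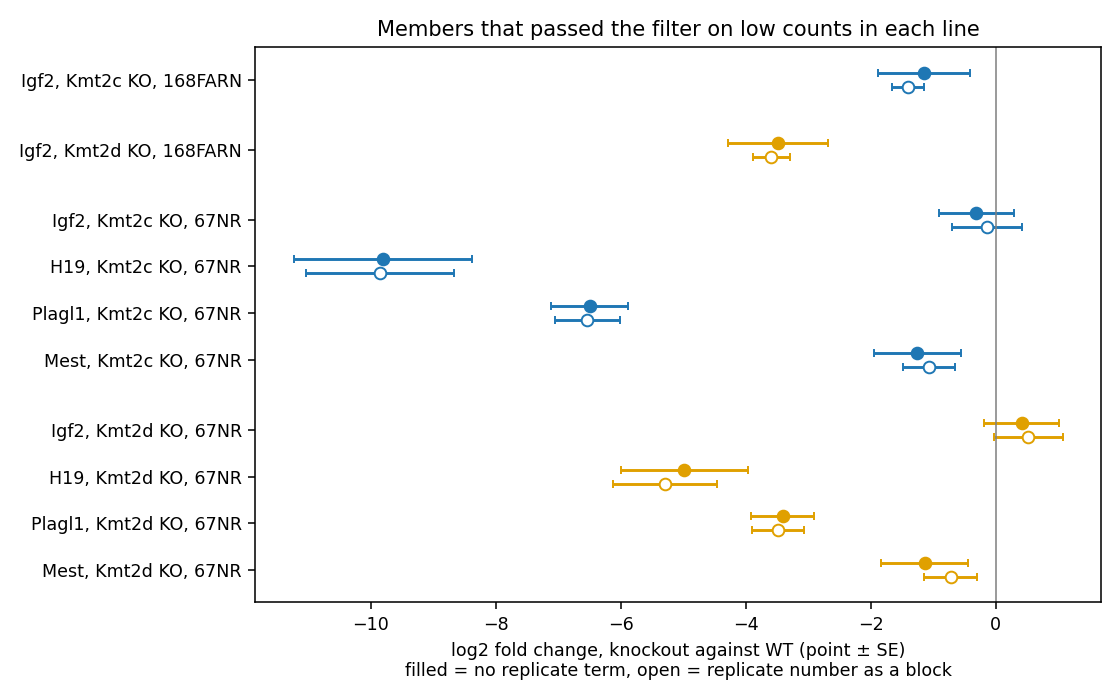
Log2 fold change of KO against WT with its SE for each member that passed the filter on low counts in a line, without (filled) and with (open) the replicate number as a block, with *Kmt2c* KO in blue and *Kmt2d* KO in yellow. The block shortens the error of *Igf2* in 168FARN from 0.80 to 0.29 in *Kmt2d* KO cells, and *H19* and *Plagl1* in 67NR lie far below 0 either way.

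*Mest*, which encodes a hydrolase-like membrane protein expressed from the paternal copy, was low in 67NR and its WT libraries disagreed. WT libraries read 1.09, 1.11 and 5.33 CPM, those of *Kmt2c* KO cells 0.520, 0.731 and 1.75 CPM, and those of *Kmt2d* KO cells 1.01, 0.954 and 1.28 CPM. WT replicate 3 was far above the other WT libraries, and the groups overlapped. *Mest* in *Kmt2c* KO cells was below the WT library of the same number in 3 of 3 pairs, at 32.9% to 65.7%. The log2 fold change was -1.25 ± 0.70 without the block (edgeR adjusted p = 0.204, not called) and -1.06 ± 0.41 with it (edgeR adjusted p = 0.05003, called), where 41.3% of genes were called. Leaving out *Kmt2c* KO replicate 3 also gave a call, at -1.91, where 4583 of 13970 genes were called. After *Kmt2d* KO it was -1.14 ± 0.70 without the block (edgeR adjusted p = 0.290) and -0.72 ± 0.42 with it (edgeR adjusted p = 0.195, 32.7% of genes called), and it moved to 0.04 without WT replicate 3.

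*Igf2* stayed low in 67NR in all genotypes. WT libraries read 0.753, 1.05 and 0.160 CPM, those of *Kmt2c* KO cells 0.494, 0.457 and 0.561 CPM, and those of *Kmt2d* KO cells 0.827, 1.03 and 0.651 CPM. The low WT value again came from replicate 3, and both KO ranges overlapped the WT range. The log2 fold changes, -0.31 ± 0.60 and 0.42 ± 0.60, were not called (edgeR adjusted p = 0.736 and 0.681). The first became 0.17 without WT replicate 2. It was called, at -0.84 (edgeR adjusted p = 0.0976), without replicate 3 in any group, where 6126 of 13851 genes were called.

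The lines themselves differed in which members they used. In WT cells *Igf2* was 166-fold lower in 67NR than in 168FARN over pooled counts. The counting interval, 141 to 198, covers counting error only. With single libraries left out the fold ran from 134 without 168FARN WT replicate 2 to 220 without 168FARN WT replicate 3. The log2 difference was -7.56 ± 0.84 (edgeR adjusted p = 3.6e-06). *H19*, *Plagl1* and *Mest* had 0 reads in all 3 WT libraries of 168FARN. Against a floor of 3 reads over that group, 67NR held at least 441-fold more *H19*, at least 220-fold more *Plagl1* and at least 71.1-fold more *Mest*. These bounds were 262-fold, 130-fold and 42.3-fold without 168FARN WT replicate 3, and that of *Mest* was 38.4-fold without 67NR WT replicate 3, which held 233 of its 402 reads. All 4 members were called by edgeR, where 39.2% of 13882 genes were, but *H19*, *Plagl1* and *Mest* entered the test only through 67NR. Line and count table cannot be told apart, since each line was counted in a table of its own.

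The effect of *Kmt2d* KO on *Igf2* was called different between the lines, from unequal starting levels. In 67NR the WT libraries held only 64, 72 and 7 reads of *Igf2*. In 168FARN its change after *Kmt2d* KO was itself not called without the block (edgeR adjusted p = 0.222). The log2 fold change in 67NR minus that in 168FARN was 3.82 ± 0.96 (edgeR adjusted p = 0.0226, 10.6% of genes called), and with the replicate block 3.93 ± 0.52 (edgeR adjusted p = 6.9e-05, 28.4% of genes called). For *Kmt2c* KO the difference was 0.73 ± 0.95 and was not called (edgeR adjusted p = 0.747, with 16.0% of genes called). *H19* was called in that test at -13.28 ± 3.63 (edgeR adjusted p = 0.0358), but in 168FARN it rests on 3 reads in *Kmt2c* KO replicate 2, without which no member was called. For *Plagl1* in both KOs, and for *H19* and *Mest* in *Kmt2d* KO, 168FARN had no reads in the groups compared, so edgeR gave no usable test of the difference.

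The other 6 members were at or near 0 in both lines. *Peg3*, which encodes a zinc-finger protein, *Zim1*, its neighbour, and *Ndn*, a growth suppressor of the MAGE family, were listed at 0 in all 18 libraries. *Meg3* had 2 reads in all, both in 168FARN. *Dlk1*, a Notch-like transmembrane protein, had 3 reads in 1 library of 168FARN and 4 in 1 library of 67NR. *Grb10*, which binds the insulin and IGF1 receptors and restrains their signal, had 3, 2 and 3 reads in the WT libraries of 168FARN and none in the 6 KO libraries, too few for a fold. In 67NR *Grb10* was absent from WT and had 2 reads after *Kmt2c* KO and 6 after *Kmt2d* KO, each in a single library. None of these 6 genes passed the filter in any fit, so none was tested. Their counts limit the level in the libraries and do not say that the genes are silent.

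Genes around *H19* and *Igf2* on chromosome 7 moved in both directions. Of 14 listed neighbours, 10 were tested in 67NR, of which 2 rose and 5 fell after *Kmt2c* KO and 1 rose and 3 fell after *Kmt2d* KO, where 35.3% and 25.5% of all genes tested were called. Their median log2 fold change was -0.75 after *Kmt2c* KO and -0.26 after *Kmt2d* KO, beside -0.02 over all genes tested in each. *Cd81*, a tetraspanin of the cell surface, read 113, 102 and 153 CPM in the WT libraries. It fell to 21.5, 19.3 and 27.7 CPM after *Kmt2c* KO and to 33.4, 32.9 and 67.0 CPM after *Kmt2d* KO. No KO library of *Cd81* reached the WT range. Its log2 fold change was -2.35 ± 0.31 (edgeR adjusted p = 4.4e-04) and -1.40 ± 0.30 (edgeR adjusted p = 0.00981).

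*Kcnq1*, a potassium channel gene, fell by 3.67 on the log2 scale after *Kmt2c* KO (edgeR adjusted p = 6.2e-04), with WT libraries at 1.12 to 3.67 CPM and those of the KO at 0.143 to 0.244 CPM. *Tnnt3*, a muscle troponin gene of the same region, fell by 2.71 and 2.39 (edgeR adjusted p = 0.00299 and 0.00844), at means under 1 CPM. *Slc22a18*, a solute carrier gene, fell by 1.36 after *Kmt2d* KO (edgeR adjusted p = 0.0219). *Tspan32* rose by 2.21 and 1.81 (edgeR adjusted p = 0.0174 and 0.0532), also at means under 1 CPM, and *Tssc4* rose by 1.03 in *Kmt2c* KO cells (edgeR adjusted p = 0.0305). The call on *Tssc4* was lost without WT replicate 2 (0.82, edgeR adjusted p = 0.104), and that on *Tspan32* after *Kmt2d* KO without WT replicate 1 or *Kmt2d* KO replicate 1 or 2 (1.39 to 1.75, edgeR adjusted p = 0.132 to 0.145). In 168FARN none of 8 neighbours tested was called without the block. With it *Cd81* was called lower there too, by -1.14 ± 0.11 (edgeR adjusted p = 9.2e-05) after *Kmt2c* KO and -0.95 ± 0.11 (edgeR adjusted p = 3.9e-04) after *Kmt2d* KO.

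Imprinted genes outside the list moved in both directions in 67NR. Of 54 listed, 53 were in the tables and 29 were tested, and 10 rose and 11 fell after *Kmt2c* KO and 8 rose and 4 fell after *Kmt2d* KO, beside calls on 35.3% and 25.5% of all genes. Their median log2 fold change was -0.15 and -0.01. With total counts in place of TMM, the median over all genes moved from -0.02 to -0.21 after *Kmt2d* KO and the calls that were higher from 54.6% to 40%. The same 8 genes rose in both KOs, namely *Dcn*, *Impact*, *Inpp5f*, *Osbpl5*, *Rian*, *Slc38a4*, *Tspan32* and *Zrsr1*, and *Cd81*, *Igf2r*, *Ppp1r9a* and *Slc22a18* fell in both, in comparisons that share their WT libraries. No gene was called in opposite directions. Leaving out 1 library ended the calls on *Inpp5f* (replicate 1 or 2 of either KO, 0.75 to 0.85) and, at the fold threshold, that on *Igf2r* after *Kmt2c* KO (-0.56 without *Kmt2c* KO replicate 3).

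*Zrsr1*, a paternally expressed gene related to splicing factors, read 1.11, 1.08 and 1.33 CPM in the WT libraries. It rose to 23.5, 24.8 and 30.0 CPM after *Kmt2c* KO and to 21.1, 17.7 and 25.8 CPM after *Kmt2d* KO. All KO libraries lay far above all WT libraries, with log2 fold changes of 4.56 ± 0.22 (edgeR adjusted p = 2.7e-06) and 4.28 ± 0.22 (edgeR adjusted p = 6.6e-06). It lies within *Commd1* on the other strand and is a retrocopy, so its counts are uncertain. *Rian*, a maternal non-coding RNA downstream of *Meg3*, rose from at most 0.0293 CPM in WT to between 0.844 and 2.01 CPM in the KO libraries, by 5.93 ± 0.72 (edgeR adjusted p = 2.7e-04) and 5.64 ± 0.72 (edgeR adjusted p = 6.1e-04). *Meg3* itself had no reads in those libraries. *Rian* passed the filter on low counts only through its KO libraries, so a fall could hardly have been seen. Its WT level was near 0, so the size of its fold depends on the fit. *Dcn*, which encodes the matrix proteoglycan decorin, rose by 3.90 ± 0.67 in *Kmt2d* KO cells (edgeR adjusted p = 0.00318).

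Among the genes that fell, *Ppp1r9a*, which encodes a neuronal actin-binding protein, changed by -2.52 ± 0.34 in *Kmt2c* KO cells (edgeR adjusted p = 4.7e-04). *Airn*, the RNA antisense to *Igf2r*, changed by -1.77 ± 0.32 there (edgeR adjusted p = 0.00246). *Airn* and *Igf2r* overlap, so reads between them cannot be told apart without the strand setting. *Asb4* had the lowest log2 fold change after *Kmt2c* KO, -5.93, which rested on WT replicate 3. Its WT libraries read 0.188, 0.205 and 16.1 CPM and those of the KO 0.0260, 0.0609 and 0.187 CPM, and without that library it was -1.11 and not called (edgeR adjusted p = 0.429). The call was also lost without *Kmt2c* KO replicate 1 or 2 (edgeR adjusted p = 0.122 and 0.120). *Phlda2*, a placental growth restrainer near *Kcnq1*, changed by -1.52 after *Kmt2c* KO (edgeR adjusted p = 0.00526) and by -0.18 after *Kmt2d* KO (edgeR adjusted p = 0.726). The KOs differed by -1.33 ± 0.31, which was not called (edgeR adjusted p = 0.120). In 168FARN, 23 of these genes were tested and none was called without the block. With the block, *Peg13*, a paternal non-coding RNA, rose by 0.82 ± 0.16 and 1.22 ± 0.16 (edgeR adjusted p = 0.00713 and 7.1e-04).

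**Figure D4:**
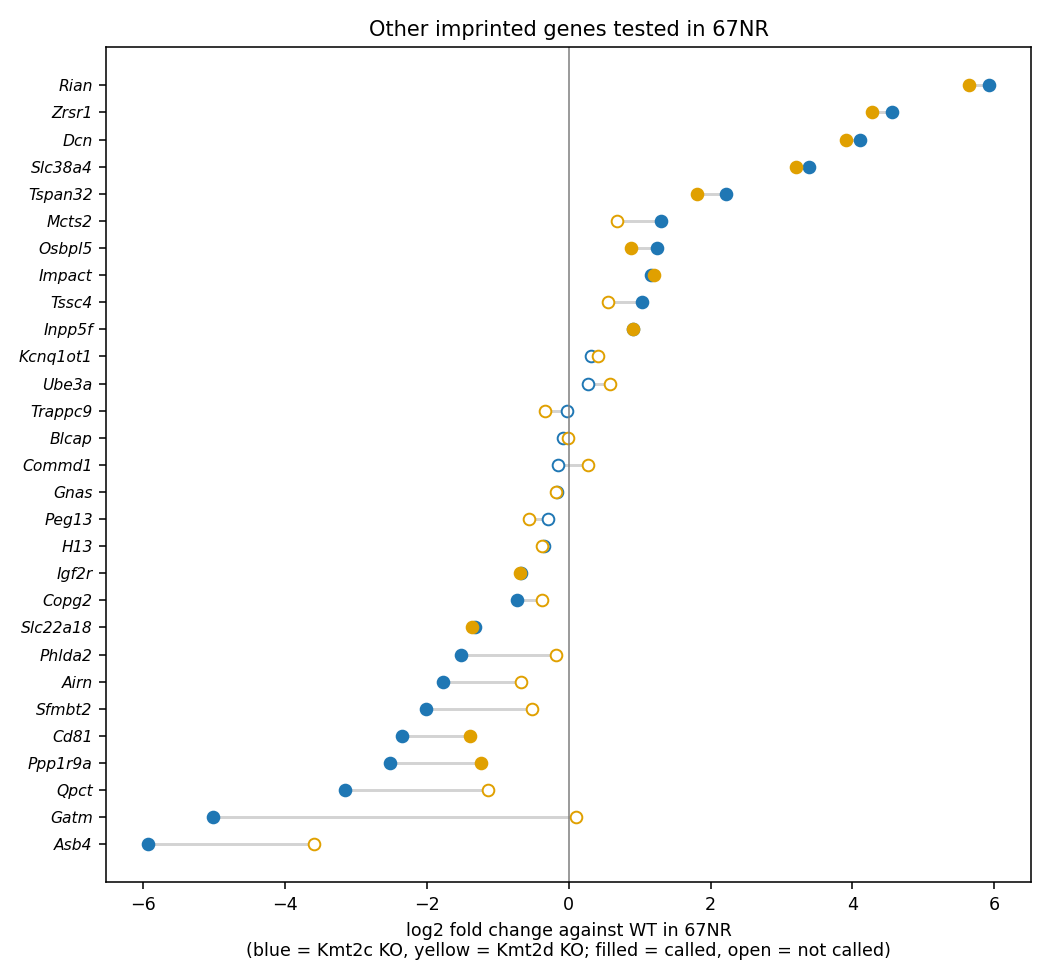
Log2 fold change against WT of the 29 other imprinted genes tested in 67NR (blue for *Kmt2c* KO, yellow for *Kmt2d* KO, filled where called). *Rian* and *Zrsr1* stand highest at 4.28 to 5.93, with *Rian* near 0 in WT, and genes lie on both sides of 0. The lowest point, *Asb4* in *Kmt2c* KO cells, rests on WT replicate 3 and is -1.11 without it.

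Of 27 genes of the insulin-like growth factor pathway, 20 were tested in 67NR, with 2 higher and 7 lower after *Kmt2c* KO and 2 higher and 5 lower after *Kmt2d* KO. Over all genes 35.3% and 25.5% were called. The median log2 fold changes were -0.12 and -0.24. Among receptors, *Igf1r* read 177 to 197 CPM in WT libraries, 224 to 264 CPM after *Kmt2c* KO and 219 to 286 CPM after *Kmt2d* KO, and its log2 fold changes of 0.43 and 0.55 did not reach the fold threshold. *Igf2r*, the receptor that clears IGF2, fell from 229 to 236 CPM in WT to 115 to 156 CPM and 120 to 162 CPM, with a log2 fold change of -0.69 ± 0.16 after *Kmt2d* KO (edgeR adjusted p = 0.0154). Of the adaptors, *Irs1* fell by 2.36 and 1.71 on the log2 scale (edgeR adjusted p = 5.2e-04 and 0.00447) and *Grb7* by 2.04 and 1.62 (edgeR adjusted p = 3.7e-04 and 0.00212). *Foxo1*, a transcription factor restrained by insulin signalling, fell by 0.90 after *Kmt2c* KO (edgeR adjusted p = 0.00484).

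The 2 pathway genes called higher in both KOs of 67NR were *Igfbp6* and *Pappa2*. *Igfbp6*, a binding protein that prefers IGF2, rose by 2.62 ± 0.48 and 2.50 ± 0.48 (edgeR adjusted p = 0.00285 and 0.00565), from 0.263 to 0.984 CPM in WT to 2.17 to 3.74 CPM over the KO libraries. *Pappa2*, a protease of IGF binding proteins, rose by 3.75 and 3.44 (edgeR adjusted p = 0.00329 and 0.00778). Among genes of other binding proteins, *Igfbp1*, *Igfbp2*, *Igfbp3* and *Igfbp5* had no reads in either line, and *Igfbp4* had group means of 290 to 1008 CPM. *Igf1* was below 0.2 CPM in all libraries of both lines. In 168FARN none of 17 genes tested was called without the block, with a median log2 fold change of -0.00079 after *Kmt2c* KO and 0.11 after *Kmt2d* KO. With the block, *Igf2bp3*, which binds the *Igf2* mRNA, fell by 2.31 ± 0.30 after *Kmt2c* KO (edgeR adjusted p = 6.3e-04).

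Of 23 regulators of imprints and DNA methylation, 20 were tested in 67NR, where 0 rose and 3 fell in each KO by edgeR, a smaller share than the 35.3% and 25.5% of all genes, with medians of -0.08 and -0.10. *Tet1*, which oxidises methylated cytosine, fell by 3.19 and 2.27 (edgeR adjusted p = 3.1e-04 and 0.00275), from 1.87 to 2.55 CPM in WT to at most 0.501 CPM in the KO libraries. *Dnmt3b*, which adds methylation, fell by 2.27 and 1.504 (edgeR adjusted p = 0.00105 and 0.0123). *Tet2* fell by 0.95 after *Kmt2c* KO (edgeR adjusted p = 0.0167) and *Ehmt2* by 0.63 after *Kmt2d* KO (edgeR adjusted p = 0.0273). Without WT replicate 3 or *Kmt2d* KO replicate 1, *Ehmt2* missed the fold threshold, at -0.48 and -0.55. *Ctcf*, whose product binds the *H19* control region, was not called, at -0.15 ± 0.24 and 0.08 ± 0.24 (edgeR adjusted p = 0.677 and 0.868). In 168FARN none of 20 regulators tested was called without the block. With it, *Dnmt3b* (-2.14 ± 0.50) and *Tet2* (-1.22 ± 0.26) were among 3 that fell after *Kmt2c* KO (edgeR adjusted p = 0.0196 and 0.0119).

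The small domains around the other members gave few calls in 67NR. *Copg2*, which overlaps *Mest*, fell by 0.74 in *Kmt2c* KO cells (edgeR adjusted p = 0.0546), and *Ltv1*, near *Plagl1*, by 0.80 (edgeR adjusted p = 0.0483). The call on *Copg2* was lost without WT replicate 1 or 2 or any *Kmt2c* KO library (-0.76 to -0.57, edgeR adjusted p = 0.113 to 0.175), and that on *Ltv1* without WT replicate 1 or 2 or *Kmt2c* KO replicate 1 or 3 (-0.83 to -0.64, edgeR adjusted p = 0.108 to 0.1495). No listed neighbour of *Peg3*, *Grb10* or *Ndn* was called there.

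Epithelial markers moved with *H19* and *Plagl1* in 67NR. The summed level of 10 mammary epithelial markers ranged over 2348 to 3597 CPM in WT libraries, 493 to 790 CPM after *Kmt2c* KO and 840 to 1596 CPM after *Kmt2d* KO. Over all genes, 17.4% and 11.6% were called lower in these KOs, and 32.7% in either direction after *Kmt2d* KO with the block. Of the markers, 8 of 8 tested were called lower after *Kmt2c* KO and 5 of 8 after *Kmt2d* KO (8 with the block). Of these calls, those on *Krt8* and *Krt14* after *Kmt2c* KO were lost without WT replicate 3 (-0.98 and -1.51) or *Kmt2c* KO replicate 1 or 2, and that on *Krt18* after *Kmt2d* KO without any WT library or *Kmt2d* KO replicate 1 or 2. *Krt5*, a basal keratin, was at 0 in all libraries. In 168FARN, where *H19* and *Plagl1* were absent, the sum ranged from 98.7 to 396 CPM over all groups. Nearly all of it was *Krt8*, a simple epithelial keratin, at 98.4 to 396 CPM, whereas *Epcam* and *Cldn7* were at 0 in all 9 libraries. The 10 mesenchymal markers summed to 3229 to 6083 CPM in 67NR WT libraries, 4046 to 5147 CPM after *Kmt2c* KO and 3763 to 5277 CPM after *Kmt2d* KO. Of 9 tested, 4 were called higher and 1 lower in each KO, where 17.9% and 13.9% of all genes were called higher. The sum hides opposite moves. Mean *Fn1* fell from 4427 CPM in WT to 1065 and 1422 CPM, and mean *Vim* rose from 613 to 3133 and 2657 CPM. The *Fn1* call after *Kmt2d* KO was lost without WT replicate 1 (-1.32, edgeR adjusted p = 0.104). The part of these shifts in the fall of *H19* and *Plagl1* was not tested. The 8 leukocyte markers summed to at most 93.7 CPM and the 5 endothelial markers to at most 11.9 CPM in any library. The 5 skeletal muscle markers summed to 1.69 to 3.06 CPM in WT and 23.0 to 32.8 CPM in KO cells of 67NR through *Des*, with *Myod1* and *Myog* at 0 in all of them.

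**Figure D5:**
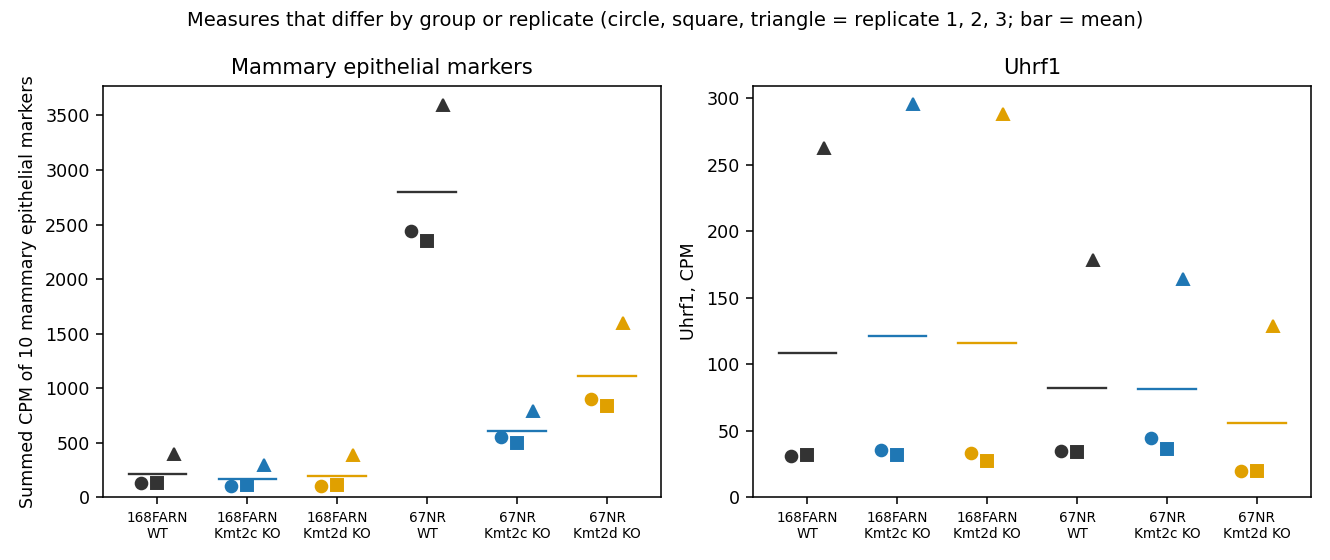
Left, summed CPM of 10 mammary epithelial markers per library, and right, CPM of *Uhrf1*, by line and genotype, with replicate 1 as a circle, 2 as a square and 3 as a triangle and bars at group means. The marker sum falls from 2348 to 3597 CPM in WT to at most 1596 CPM in KO cells of 67NR, and *Uhrf1* is highest in replicate 3 of every group.

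Over the 18 libraries, the genes whose log2(CPM + 1) was most like that of each tested member were ranked by Pearson's r among 13882 genes. The points share line and genotype, so r mostly follows the groups. For *H19* they were *Ramp1* (r = 0.995), *Ccdc129* (r = 0.993) and *Klhdc7a* (r = 0.992), each at 0 in 168FARN and highest in WT cells of 67NR. For *Plagl1* they were *Lef1* (r = 0.993), *Mfap3l* (r = 0.992) and *Ly9* (r = 0.991), with the same order of groups. For *Igf2* they were *Snx20* (r = 0.968), *Plxdc1* (r = 0.957) and *Cnih2* (r = 0.952), and for *Mest* they were *Sfn* (r = 0.971), *Robo1* (r = 0.968) and *Zfp281* (r = 0.962). *H19* and *Plagl1* followed each other at r = 0.977, while *H19* and *Igf2*, which lie side by side, gave r = -0.44.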

How the data were processed

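RNA-seq counts of 18 libraries, 3 of each genotype (WT, *Kmt2c* KO, *Kmt2d* KO) in 168FARN and 67NR, were analysed. Counts are as deposited, 1 table of raw counts per line by gene symbol with no normalization. The authors had used a stranded polyA kit, STAR, the VIPER pipeline and mm9. The setting of strand in the counting is not given in the sources used here. All values are whole numbers. No column was left without a sample, and no libraries held identical counts.

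Groups follow the sample labels. The members and gene lists were chosen with earlier results of these data known, and the call threshold was taken over from an earlier analysis of them. Per line, 9 libraries were fitted by genotype with edgeR 4.0.16 (R 4.3.3), using TMM, filterByExpr and the robust quasi-likelihood test. Line differences used all 18 libraries. P-values were adjusted by Benjamini-Hochberg over all genes tested. Calls needed an absolute log2 fold change over 0.6 with an adjusted p under 0.1. SEs are the log2 fold change over the square root of F. Per the study's methods, replicates of a line were collected a passage apart, so p-values measure the spread between such collections.

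The replicate numbers were used to pair the samples. Deviations from group means correlated at 0.65 to 0.90 between same-numbered libraries in 168FARN and 0.35 to 0.72 in 67NR, against -0.82 to 0.73 and -0.60 to 0.52 for different numbers. The methods treat each collection time as a batch but do not tie it to a number. The pairing is read from the data, and only replicate 3 showed it. Between numbers 1 and 2 the correlations were 0.62 to 0.73 in 168FARN and 0.28 to 0.52 in 67NR. Within number 1 or 2 they were 0.65 to 0.74 and 0.35 to 0.43. Whether libraries of numbers 1 and 2 belong in pairs is therefore not shown by the data.

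Named genes are the 10 members, up to 3 called genes with the smallest p in each direction per list and KO comparison, the 3 genes nearest each tested member, and *Kmt2c* and *Kmt2d*. All other genes given by name, among them *Igf1r*, *Ctcf*, *Igf1*, *Phlda2*, *Uhrf1*, single markers of other cell types and genes called in both KOs or only with the block, were named after their values were seen. Alternatives were other size factors, total counts, DESeq2 1.42.0, no filter, a replicate block, another threshold, fewer groups, each library left out and, after seeing the data, no replicate 3 and pooled folds without each library. Positions are GENCODE vM1 on NCBIM37 (mm9), and 20510 of 24387 symbols matched a gene. The fits were also run on simulated counts, which held no difference between replicates. That run therefore says nothing about results that turn on replicate 3 or on the block.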

Additional observations from a re-analysis of the deposited data

Results flagged for a closer look

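*Igf2* was singled out because the effect of *Kmt2d* KO differed between the lines by a test of the difference itself, at 3.82 ± 0.96 on the log2 scale for 67NR minus 168FARN (edgeR adjusted p = 0.0226). All 21 alternatives called it, with values from 3.40 to 4.31 and edgeR or DESeq2 adjusted p from 2.3e-09 to 0.0559. *Igf2* was 166-fold lower in 67NR WT than in 168FARN WT cells, so the effects compared start from very different levels.

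*H19* was singled out because the effect of *Kmt2c* KO differed between the lines at -13.28 ± 3.63 (edgeR adjusted p = 0.0358). In 168FARN, *H19* had no reads in WT and 3 reads in 1 *Kmt2c* KO library, at the floor of 3 reads, so the size of this difference has no meaning as a fold. Of 20 alternatives that gave a value, 19 called it (edgeR or DESeq2 adjusted p from 0.00283 to 0.115). It was not called with the replicate block in DESeq2, and without 168FARN *Kmt2c* KO replicate 2, the library with the 3 reads, it had no value.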

How the results depend on the processing

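Calls on *H19* and *Plagl1* against WT in 67NR held under all 15 alternatives, at -12.42 to -9.17 and -6.80 to -4.36 for *H19* and -7.22 to -6.16 and -4.05 to -3.11 for *Plagl1* (*Kmt2c* KO, then *Kmt2d* KO). In 168FARN, 0 members were called in each of the 3 comparisons without the block. That became 1, *Igf2*, in all 3 with the replicate block in edgeR, with the replicate block in DESeq2 and without replicate 3 in any group, and in the 2 comparisons with *Kmt2d* KO also in DESeq2 without the block. Each single left-out library gave 0 there, so the call needs the replicate block, another tool or the absence of replicate 3. In 67NR, *Plagl1* was the 1 call between the KOs, and it became 0 at an adjusted p under 0.05 with no fold threshold, with total counts only and with only the libraries of the compared groups, where *H19* did not pass the filter. Leaving out single libraries gave 0 to 1, with 0 for any of *Kmt2c* KO replicates 1 to 3 and *Kmt2d* KO replicates 1 and 2. The 1 call on the *Kmt2c* KO difference between lines, *H19*, became 2 in DESeq2 (with *Plagl1*) and was *Plagl1* in place of *H19* with the replicate block in DESeq2, and leaving out single libraries gave 0 to 1, with 0 without 168FARN *Kmt2c* KO replicate 2, where *H19* had no value. For *Kmt2d* KO, the 1 call, *Igf2*, became 2 with the replicate block in DESeq2 (with *Plagl1*). *Plagl1* had no reads in 168FARN, so these DESeq2 calls hold no value from that line. Beside these, the replicate block changed only the call on *Mest* after *Kmt2c* KO in 67NR among the calls on single members. The causes were not tested.

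Signs reversed only for values that were not called. In 67NR, leaving out single libraries moved *Igf2* after *Kmt2c* KO between -0.76 and 0.17 (without WT replicate 2), *Igf2* after *Kmt2d* KO between -0.030 (without WT replicate 3) and 0.91, *Mest* after *Kmt2d* KO between -1.48 and 0.042 (without WT replicate 3), and the *Mest* difference between the KOs, -0.12 in all libraries, between -0.77 and 0.19. That difference became 0.074 with total counts only, and 0.19, 0.065 and 0.0097 without *Kmt2c* KO replicate 1, *Kmt2c* KO replicate 2 and *Kmt2d* KO replicate 3. Over all genes, calls in 168FARN (*Kmt2c* KO, *Kmt2d* KO, between KOs) numbered 44, 35 and 31, and 886, 723 and 653 with the replicate block, 288, 248 and 235 in DESeq2, 1780, 1346 and 1141 without replicate 3, 4, 0 and 2 with only the compared groups, and 23, 19 and 21 at an adjusted p under 0.05. Between the KOs in 67NR there were 193, and 996 with the block, 597 in DESeq2, 1743 without replicate 3, 104 with only the compared groups, 90 at an adjusted p under 0.05 and 41 with total counts. The differences between lines gave 2226 and 1471, and 4805 and 3939 with the block. With total counts, the higher share of calls moved from 52.9% to 65.7% for the *Kmt2c* KO difference between lines and from 9.33% to 19.5% between the KOs in 67NR. At these depths the fold of a member with few reads in a group, such as *H19* in KO cells, has a wide counting interval or only a bound.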
